A study of Mus musculus with 24 samples.

Results

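The first day after replating was examined in control cultures of bone-marrow-derived dendritic cells, which are myeloid cells raised from mouse marrow with the growth factor GM-CSF. The comparison was between 6 of the 24 libraries of the study, those of the WT cultures on day 7 and on day 8, and described all expressed genes. All 24 libraries entered the fit and shared its estimate of the spread and its filter, so the other groups, KO included, also bear on which genes were called. Each day held 3 libraries, 1 from each of the mice numbered 63, 65 and 66, so the same animals were followed over both days. WT in the labels stands for ARPC4 Flox/Flox with CD11c-Cre -/-, that is, floxed Arpc4 alleles (Arpc4 encodes a subunit of the actin-branching Arp2/3 complex) and no Cre transgene. The KO cultures, compared with WT for a single question, carried the same floxed alleles with CD11c-Cre +/-, in which Cre is driven by the CD11c promoter. Marrow came from 8- to 10-week-old mice of both sexes. Per the labels' protocols, cells were detached with PBS-EDTA and put into fresh GM-CSF medium on days 4 and 7, and floating cells alone were kept while attached ones were thrown away. The labels do not say whether the day 7 cells were taken before or after that day's replating, and no culture stayed unplated. The extra day, the replating and the fresh medium therefore cannot be told apart in this comparison.

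GM-CSF binds a receptor that activates the kinase JAK2 and the transcription factor STAT5, which switches on its own feedback inhibitors, such as Cish and the Socs genes, along with genes of growth and division. Marrow cultured in GM-CSF yields a mixture of dendritic cells and macrophage-like cells. Lipid handling in such cells depends on the nuclear receptors LXR and PPAR gamma, and a shortage of amino acids is answered by the transcription factor ATF4, which raises amino acid synthesis enzymes and aminoacyl-tRNA synthetases.

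Libraries held 24361744 to 28115517 counts on day 7 and 25163904 to 28651870 on day 8. On day 7, 20.9% to 21.3% of a library's counts fell on its 10 most counted genes, and on day 8 it was 13.8% to 14%. Levels below are CPM, in which TMM factors put the libraries on 1 scale, and a log2 fold change is day 8 over day 7 unless stated. In the KO cultures, mouse numbers did not follow 1 animal through the days: the library with a high level of the Y-linked gene Ddx3y was number 64 on days 7 and 9, number 68 on day 8 and number 67 on day 10. In WT it was number 63 on all 4 days.

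The labelled cell type was compared with marker genes. Itgax, which encodes CD11c, stood at 640 TPM on day 7 and 620 TPM on day 8, and the antigen-presentation gene Cd74 at 1500 and 2720 TPM. Other dendritic cell markers varied. Irf4 stood at 22 and 48.1 TPM, Clec10a at 26.8 and 41.4 TPM, Batf3 at 16 and 12.8 TPM and Clec9a at 13.3 and 5.46 TPM. Flt3 stood at 0.597 and 0.710 TPM, Zbtb46 at 0.857 and 1.30 TPM, and Xcr1 at 0.017 and 0.10 TPM. Macrophage genes were abundant, with the growth factor receptor Csf1r at 541 and 634 TPM and the complement gene C1qb at 1079 and 1288 TPM. These TPM carry no TMM factors, and on log2(TPM + 1) the median change of all genes was 0.165, so small differences between the days are not read as changes. In CPM, Csf1r held 1117 to 1223 and then 1106 to 1225, and C1qb 413 to 489 and then 406 to 482. Itgax held 1068 to 1315 CPM and then 907 to 1020 CPM. The cultures thus held high levels of Itgax and of macrophage genes, and whether the same cells carried both was not tested. They are called BMDC cultures here. As RNA was pooled over cells, fewer cells of a type and less RNA per cell cannot be told apart.

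Between day 7 and day 8 the transcriptome changed widely. Of 14535 genes tested, 43.4% were called at an adjusted p under 0.05 (edgeR quasi-likelihood test with Benjamini-Hochberg adjustment), with 3120 higher (21.5%) and 3195 lower (22%) on day 8. Among genes of the GM-CSF response, ribosome assembly, cell division, cholesterol synthesis, endoplasmic reticulum folding, interferon response and inflammatory signalling, more were higher than lower. Among LXR targets, lysosomal genes, lipid-handling genes, antioxidant genes and amino acid stress genes, more were lower than higher. Most called changes were small: 2531 had an absolute log2 fold change under 0.5, 2089 lay between 0.5 and 1, 1306 between 1 and 2, and 389 at 2 or more. In the largest class 168 genes were higher and 221 lower. The CPM values of the days did not overlap in 59.8% of all genes tested. The median log2 fold change over all genes was -0.004, and the members of each list below are to be read against that median and these shares. Genes are named by a rule that takes the largest changes and up to 4 called members of each list, and any gene outside it was picked after its values were seen.

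The balance of higher and lower genes depended on scaling. With library totals in place of TMM factors, 69.9% of 6748 called genes were higher, against 49.4% of 6315 with TMM, and the median of all genes moved to 0.17. With library totals but without the 14 most counted genes, 54.9% of the called genes were higher and the median was 0.04. Abundant genes from that group are given here outside the naming rule. Lyz2, the lysozyme of myeloid cells, fell from 67460, 55770 and 60760 CPM (mice 63, 65 and 66) to 33220, 30050 and 31310 CPM (log2 -0.96, SE 0.22, adjusted p 0.0014). Ccl6, a chemokine gene, moved the other way, from 3972, 3313 and 3225 CPM to 10620, 9779 and 10170 CPM (log2 1.54, SE 0.20, adjusted p 3.9e-06).

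**Figure D1:**
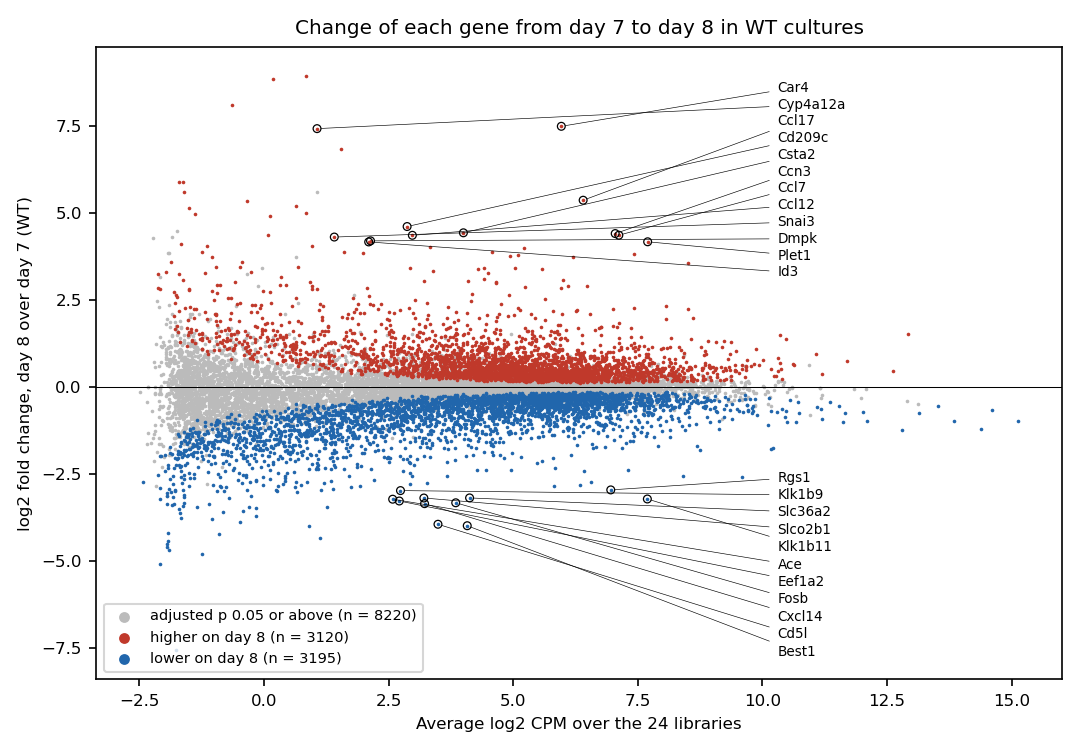
Change of each tested gene from day 7 to day 8 in WT (log2 fold change, y axis) against its average log2 CPM over the 24 libraries (x axis), with the 3120 higher genes in red, the 3195 lower genes in blue and the rest in grey. Rings mark named genes among the largest increases and decreases, and the most abundant genes at the right lie mainly below 0.

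Promoter sequences of 5 genes are shown because their results bear on the main groups: Cish for the GM-CSF response, Cxcl10 for the interferon response, Creld2 for endoplasmic reticulum folding, and Asns and Aars as genes of amino acid metabolism. They come from RefSeq on GRCm38.p6 and span 250 bases before to 50 bases after each start, read 5′ to 3′ on the strand of the gene. The RefSeq start lay 633 bases from the GENCODE gene start for Cish, 698 for Aars and 45 for Asns, and at that start for Cxcl10 and Creld2. Capitals mark matches to a motif, searched on both strands.
Cish, chr9:107296409-107296708, forward strand: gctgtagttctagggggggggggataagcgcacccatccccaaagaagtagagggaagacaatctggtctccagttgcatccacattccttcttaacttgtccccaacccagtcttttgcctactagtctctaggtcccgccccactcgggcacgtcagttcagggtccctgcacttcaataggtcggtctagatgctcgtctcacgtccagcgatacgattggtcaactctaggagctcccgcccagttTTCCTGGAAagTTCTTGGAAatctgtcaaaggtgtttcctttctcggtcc
Cxcl10, chr5:92348840-92349139, reverse strand: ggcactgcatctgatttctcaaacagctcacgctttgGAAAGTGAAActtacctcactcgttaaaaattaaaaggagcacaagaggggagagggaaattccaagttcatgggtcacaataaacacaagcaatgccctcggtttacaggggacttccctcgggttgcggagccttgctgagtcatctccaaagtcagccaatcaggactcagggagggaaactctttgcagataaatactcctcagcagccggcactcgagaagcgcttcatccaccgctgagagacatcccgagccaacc
Creld2, chr15:88819396-88819695, forward strand: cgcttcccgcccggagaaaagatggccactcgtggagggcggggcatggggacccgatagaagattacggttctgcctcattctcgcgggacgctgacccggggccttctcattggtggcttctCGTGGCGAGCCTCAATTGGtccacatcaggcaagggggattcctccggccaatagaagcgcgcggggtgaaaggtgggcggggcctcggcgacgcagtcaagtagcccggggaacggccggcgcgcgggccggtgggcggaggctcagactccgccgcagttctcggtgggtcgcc
Asns, chr6:7693160-7693459, reverse strand: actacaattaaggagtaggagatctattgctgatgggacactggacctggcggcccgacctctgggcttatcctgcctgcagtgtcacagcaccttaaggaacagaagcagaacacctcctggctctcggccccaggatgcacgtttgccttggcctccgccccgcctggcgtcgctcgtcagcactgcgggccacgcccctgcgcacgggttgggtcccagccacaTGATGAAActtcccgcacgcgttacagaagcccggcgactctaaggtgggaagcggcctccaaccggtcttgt
Aars, chr8:111033592-111033891, forward strand: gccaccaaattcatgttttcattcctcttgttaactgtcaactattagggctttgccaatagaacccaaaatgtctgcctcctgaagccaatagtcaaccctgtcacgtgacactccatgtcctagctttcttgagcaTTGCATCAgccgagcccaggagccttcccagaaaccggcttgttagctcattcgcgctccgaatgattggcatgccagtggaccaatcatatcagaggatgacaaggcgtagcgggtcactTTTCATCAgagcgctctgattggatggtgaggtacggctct

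The Cish window held 2 matches to TTCNNNGAA, the letters of a STAT5 site, which reads the same on both strands. Such a match stood in 4 of the 20 promoters of the GM-CSF list found in the table (20.0%) and in 6.94% of the 10521 promoters of tested genes. The Cxcl10 window held GAAANNGAAA, the core of the interferon response element, which stood in 19 of 32 promoters of interferon-stimulated genes (59.4%) and in 3.24% of all. Creld2 held the endoplasmic reticulum stress element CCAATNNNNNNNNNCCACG on the opposite strand, present in 9 of 25 promoters of its list (36.0%) and in 0.171% of all. The ATF4 site TGATGNAA occurred once in Asns and at 2 places in Aars. It stood in 6 of 25 promoters of the amino acid stress list (24%), which holds Asns but not Aars, and in 2.35% of all. The E-box CACGTG, the same on both strands, was found in 10 of 45 promoters of ribosome assembly genes (22.2%) and in 10.1% of all. These matches describe the sequences and do not show binding.

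Genes of the GM-CSF receptor and its STAT5 response were higher in majority: of 26 tested, 16 were higher, 4 were lower and 6 were not called, with a median log2 fold change of 0.50. The per-mouse medians were 0.54, 0.62 and 0.49 for mice 63, 65 and 66. Cish (ENSMUSG00000032578.7, chromosome 9, 107296026 to 107302784), a feedback inhibitor of cytokine receptors, stood at 20.7, 16.3 and 20.1 CPM on day 7 and at 274, 237 and 302 CPM on day 8. All day 8 values lay above all day 7 values, a 14.2-fold rise (log2 3.83, SE 0.17, adjusted p 2.9e-12). Socs1, a second inhibitor of JAK kinases, stood at 6.34, 6.60 and 5.99 CPM and then at 67.8, 60.7 and 70.4 CPM. Its rise was 10.5-fold without overlap (log2 3.39, SE 0.11, adjusted p 5.6e-14). Il2ra, the interleukin-2 receptor alpha chain, went from 2.41, 2.11 and 2.82 CPM to 17.9, 13.8 and 14.8 CPM (log2 2.66, SE 0.68, adjusted p 0.0033). Outside the naming rule, Ccnd2 and Ccnd1, the cyclins that start the division cycle, rose by 2.28 and 1.71 on the log2 scale. The receptor chain Csf2rb rose by 0.74, while Csf2ra had a log2 fold change of -0.23 and was not called. Bcl6, a repressor whose transcription STAT5 is known to reduce, moved against the list, from 66.7, 67.3 and 68.8 CPM to 12.7, 12.5 and 13.8 CPM. No value overlapped (log2 -2.38, SE 0.17, adjusted p 2.0e-09).

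Growth and division genes were higher more often than lower. Of 50 ribosome assembly genes, 48 were higher, 1 (Rrp1) was lower and 1 was not called, with a median of 0.74 and per-mouse medians of 0.79, 0.70 and 0.74. Rrp1 lost its call with library totals and without any 1 WT mouse. Nop58, a core protein of the particles that methylate ribosomal RNA, stood at 23, 22.6 and 24.7 CPM on day 7 and at 59.4, 57.0 and 58.6 CPM on day 8, without overlap (log2 1.31, SE 0.11, adjusted p 1.1e-08). Heatr1 (1.69), Dkc1 (1.68) and Rrp9 (1.25), log2 fold changes all, were also called, but each overlaps a gene with more counts with opposite orientation, and whether counting used strand is not given in the sources used here. The growth regulator Myc, which drives this gene group in many cells, went from 21.9, 22.7 and 25.9 CPM to 78.8, 62.1 and 74.0 CPM (log2 1.61, SE 0.12, adjusted p 5.7e-09). Its lowest day 8 value was above its highest day 7 value. The proteins of the finished ribosome did not share this direction: of 79 cytosolic ribosomal protein genes 29 were lower and 4 higher, with a median of -0.20. That split depended on scaling, with 10 lower and 7 higher (median -0.03) with library totals and a median of 0.03 on TPM. It depended on single libraries too: 15 were lower without the day 7 library of mouse 66 (median -0.12) and 15 without the day 8 library of mouse 65 (median -0.10). The higher members were 2 without the day 7 library of mouse 65 or the day 8 library of mouse 63 or 66. Rps27, a ribosomal protein gene that was lower, went from 222, 192 and 259 CPM to 134, 137 and 150 CPM (log2 -0.67, SE 0.10, adjusted p 2.6e-05). Rps10 was higher at low counts, with means of 1.27 and 2.93 CPM (log2 1.21, adjusted p 0.0028).

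Of 50 DNA replication genes, 28 were higher and 3 (E2f2, Rfc2 and Pcna) lower, with a median of 0.72. Without mouse 63 or 66, 17 and 16 were higher. With library totals or without any 1 WT mouse, 1 was lower. Mcm5, a subunit of the replicative helicase, stood at 19, 13.9 and 15.2 CPM on day 7 and at 56.9, 41.1 and 51.0 CPM on day 8. The ranges were apart, and mouse 65 was the lowest on both days (log2 1.63, SE 0.31, adjusted p 0.00023). Orc1, which marks replication origins, was at 0.522, 0.421 and 0.513 CPM and then at 3.46, 2.03 and 3.27 CPM (log2 2.57, SE 0.35, adjusted p 5.8e-06). Uhrf1, which keeps DNA methylation through replication, rose by 1.72 on the log2 scale (SE 0.35, adjusted p 0.00047). Of 52 mitosis genes, 25 were higher, 1 (Cenpa) was lower and 26 were not called, with a median of 0.89 and per-mouse medians of 0.80, 0.84 and 1.06. Cenpa lost its call with library totals and without mouse 65 or 66. The number of mitosis genes called rested on single libraries: 7 were higher without the day 7 library of mouse 65, 6 without the day 7 library of mouse 66, 6 without the day 8 library of mouse 63 and 14 without the day 8 library of mouse 66. Without a WT mouse it was 4, 4 or 3 (mouse 63, 65 or 66), without KO mouse 67 it was 39 and with the WT libraries alone it was 49, while the median stayed between 0.83 and 1.06 under the alternatives run. Aurka, a spindle kinase, stood at 5.90, 4.31 and 4.62 CPM and then at 16.5, 11.3 and 12.6 CPM, without overlap (log2 1.44, SE 0.33, adjusted p 0.0014). Its level was 27.8 CPM on day 9 and 31.9 CPM on day 10, as means of 3 mice. At the same time 15 of 30 p53 targets were higher and 4 lower (median 0.52). Among them Cdkn1a, the p21 inhibitor of the division cycle, stood at 284, 316 and 326 CPM and then at 790.4, 724 and 769 CPM, with no shared range (log2 1.30, SE 0.13, adjusted p 1.0e-07). Tnfrsf10b, a death receptor, rose by 1.71 (SE 0.16, adjusted p 6.3e-08).

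**Figure D2:**
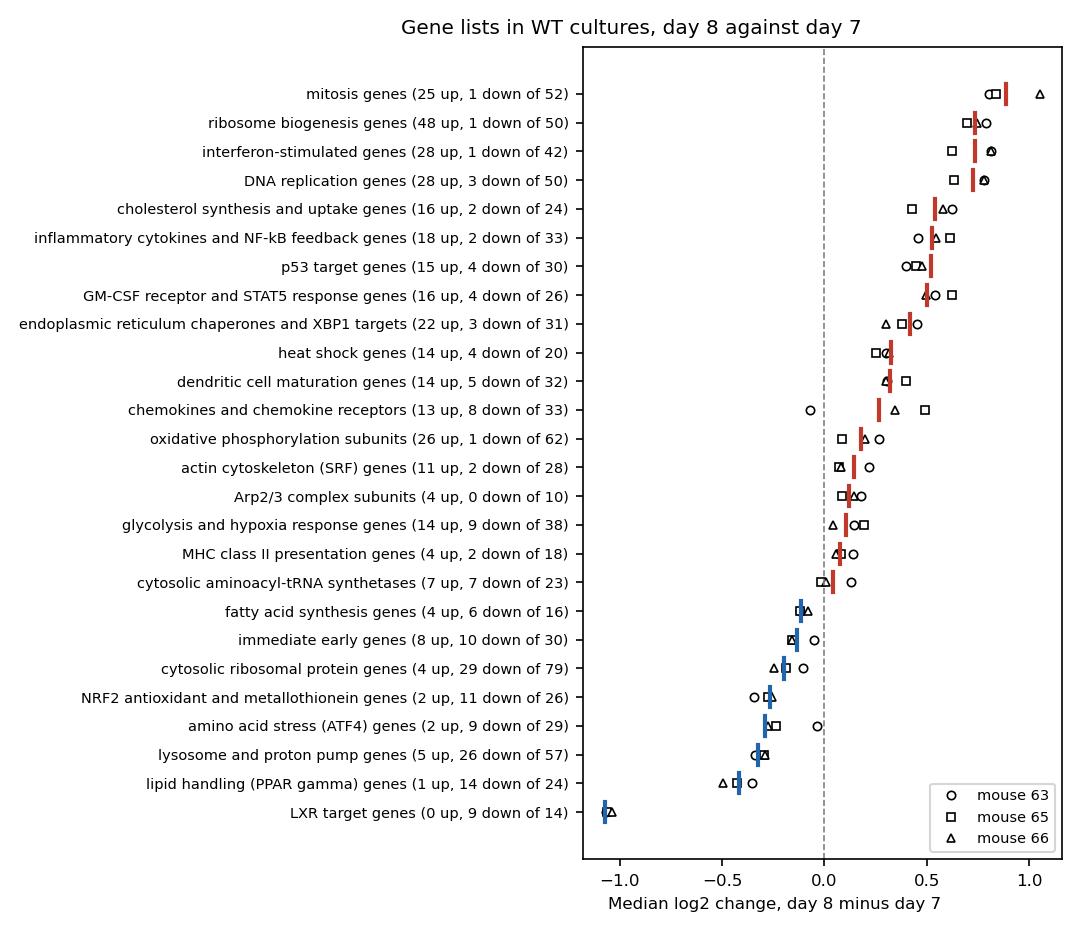
Median log2 change of each gene list from day 7 to day 8 (x axis), with 1 open symbol for each WT mouse and a bar for the median of the fitted fold changes, red above 0 and blue below. The counts of members called higher and lower stand beside each name, the dashed line is the median of all genes at -0.004, and in chemokines and chemokine receptors and in cytosolic aminoacyl-tRNA synthetases the mice did not all lie on 1 side of 0.

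Sterol synthesis genes were mostly higher and LXR targets mostly lower. Of 24 tested genes of cholesterol synthesis and uptake, 16 were higher, 2 (Dhcr7 and Sc5d) lower and 6 not called, with a median of 0.54. Without mouse 66, 10 were higher, and without mouse 63 or 65 or with library totals, 1 was lower. Hsd17b7, an enzyme of cholesterol synthesis, stood at 8.99, 6.74 and 7.19 CPM on day 7 and at 17.4, 17.8 and 18.9 CPM on day 8. All day 8 values lay above all day 7 values (log2 1.24, SE 0.12, adjusted p 1.4e-07). Idi1 (log2 1.15) and Acat2 (1.08), enzymes of the same route, rose too. LXR target genes, which serve the removal of cholesterol, had 0 members higher, 9 lower and 5 not called of 14 tested, with a median of -1.07 and per-mouse medians of -1.06, -1.06 and -1.04. Apoe, the carrier of exported cholesterol, went from 3267, 3232 and 2655 CPM to 899, 959 and 846 CPM. The lowest day 7 value was far above the highest day 8 value (log2 -1.76, SE 0.41, adjusted p 0.0017). Cd5l, a secreted macrophage protein, fell from 45.3, 37.8 and 39.9 CPM to 2.10, 3.48 and 2.43 CPM, a 15.3-fold difference (log2 -3.94, SE 0.61, adjusted p 3.1e-05). Outside the naming rule, the cholesterol pump gene Abca1 fell by 1.32, while Abcg1 stood at -0.01 and was not called. Pltp, a phospholipid transfer gene, fell by 2.74, but it overlaps Ctsa, which has more counts, on the opposite strand.

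Fatty acid synthesis was split. Of 16 genes tested, 4 were higher and 6 lower, with a median of -0.12 that turned to 0.05 with library totals. Fasn, the fatty acid synthase, rose from 65.2, 67.8 and 59.8 CPM to 173, 165 and 183 CPM (log2 1.44, SE 0.22, adjusted p 2.9e-05). Scd1, which puts a double bond into fatty acids, fell from 32.9, 39.3 and 42.4 CPM to 8.98, 7.77 and 11.9 CPM (log2 -2.0, SE 0.51, adjusted p 0.0035). In both genes the days were apart in every mouse. Of 24 lipid-handling genes of the PPAR gamma list, 14 were lower, 1 was higher and 9 were not called, with a median of -0.42. With library totals 10 were lower and 4 higher (median -0.25), and without any 1 WT mouse 8 or 9 were lower. Fabp4, a fatty acid carrier, fell from 227, 310.3 and 279 CPM to 68.6, 93.2 and 85.1 CPM, without overlap (log2 -1.73, SE 0.31, adjusted p 0.00014). The 1 member that rose was Car4, a carbonic anhydrase on the cell surface. Car4 (ENSMUSG00000000805.18, chromosome 11, 84957786 to 84966044) was at 0.602, 0.281 and 0.685 CPM on day 7 and at 130.2, 64.9 and 94.2 CPM on day 8 (log2 7.49, SE 0.45, adjusted p 1.9e-10). Its means on days 9 and 10 were 81.0 and 66.7 CPM.

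Lysosomal genes were lower more often than higher. Of 57 lysosome and proton pump genes, 26 were lower, 5 higher and 26 not called (median -0.32). With library totals the split was 21 lower and 11 higher, and without mouse 63 or 65, 17 were lower. Ctsd, the lysosomal protease cathepsin D, stood at 12870, 13030 and 13240 CPM on day 7 and at 5577, 5674 and 5374 CPM on day 8. Every mouse was lower on day 8 (log2 -1.24, SE 0.26, adjusted p 0.00077). Gaa, the lysosomal alpha-glucosidase, fell from 212, 231 and 212 CPM to 101.5, 109.8 and 106 CPM, without overlap (log2 -1.04, SE 0.13, adjusted p 3.1e-06). In the NRF2 antioxidant list, 11 of 26 genes were lower and 2 higher (median -0.27), against 11 lower and 6 higher (median -0.10) with library totals. Fth1, the ferritin heavy chain that stores iron, went from 37470, 39520 and 38450 CPM to 16680, 17350 and 16190 CPM, without overlap (log2 -1.20, SE 0.21, adjusted p 0.00013). The ferritin light chain gene Ftl1, chosen after its values were seen, had means of 12660 and 9116 CPM and was not called (log2 -0.47, adjusted p 0.066). Gstm1, a glutathione transferase, fell by 1.2, while Nqo1, a quinone reductase, rose from 3.45, 4.40 and 5.48 CPM to 7.48, 10.9 and 10.7 CPM (log2 1.12, SE 0.20, adjusted p 0.0001).

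Beside these falls the summed level of the macrophage marker list went from 30540 to 35180 CPM on day 7 to 16660 to 19630 CPM on day 8. Of its 14 tested members 3 were higher and 4 lower, and 1 was higher without the day 7 library of mouse 63 or the day 8 library of mouse 65. Gpnmb, a glycoprotein of lysosomes and also a member of the lysosome list, made up most of the sum, with 25710 CPM on day 7 and 13090 CPM on day 8 as means. Csf1r held 1117 to 1223 CPM on day 7 and 1106 to 1225 CPM on day 8, and the mannose receptor Mrc1 rose by 1.16. The tissue macrophage markers Timd4, Vsig4 and Cd163 were near 0 on both days. The monocyte list sum went from 2985 to 3930 CPM down to 1764 to 2144 CPM, with 2 members higher and 3 lower of 9 (1 higher without the day 7 library of mouse 63 or 65 or the day 8 library of mouse 65 or 66). Within it fibronectin (Fn1) fell by 2.58 and versican (Vcan) rose by 3.73. The neutrophil list summed to 3503 to 5412 CPM and then 3647 to 4502 CPM (0 higher, 4 lower of 15). The eosinophil list summed to 154 to 205 CPM and then 82.3 to 98.3 CPM (0 higher, 5 lower of 9, and 3 lower without mouse 65 or 66). The osteoclast list summed to 533 to 668 CPM and then 301 to 420.0 CPM (0 higher, 4 lower of 7), with Calcr at 0. The mast cell and basophil list went the other way, from 80.7 to 102 CPM up to 114 to 164 CPM (3 higher, 1 lower of 8), with Tpsab1 at 0 on both days and Mcpt4 at 0 on day 8. The progenitor list, which also holds Kit, summed to 242 to 296 CPM and then 298 to 318 CPM (2 higher, 0 lower of 10). Within them the stem cell factor receptor Kit was at 4.54 to 5.34 CPM and then 19.7 to 34.7 CPM, the progenitor antigen Cd34 at 2.73 to 4.24 and then 12.8 to 14.8 CPM, and the basophil protease Mcpt8 at 7.27 to 11.5 and then 23.8 to 34.5 CPM. These stood beside the division genes above. The dendritic cell list summed to 2183 to 2667 CPM and then 2720 to 3221 CPM (2 higher, 2 lower of 12). Without mouse 63 or 65, 1 was higher, and without mouse 66, 0 were higher and 1 lower. Without KO mouse 67, 5 were higher. In this sum Cd74 had means of 949 and 1470 CPM and was not called (log2 0.63, adjusted p 0.077). Itgax held 1068 to 1315 CPM and then 907 to 1020 CPM. T cell markers summed to at most 8.51 CPM, and NK cell and erythroid markers to at most 1.03 CPM, in any library of either day. B cell markers summed to at most 39.6 CPM, stromal markers to at most 73.5 CPM and plasmacytoid dendritic cell markers to 132 to 155 CPM on both days. The part of these cell types in the changes was not tested.

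**Figure D3:**
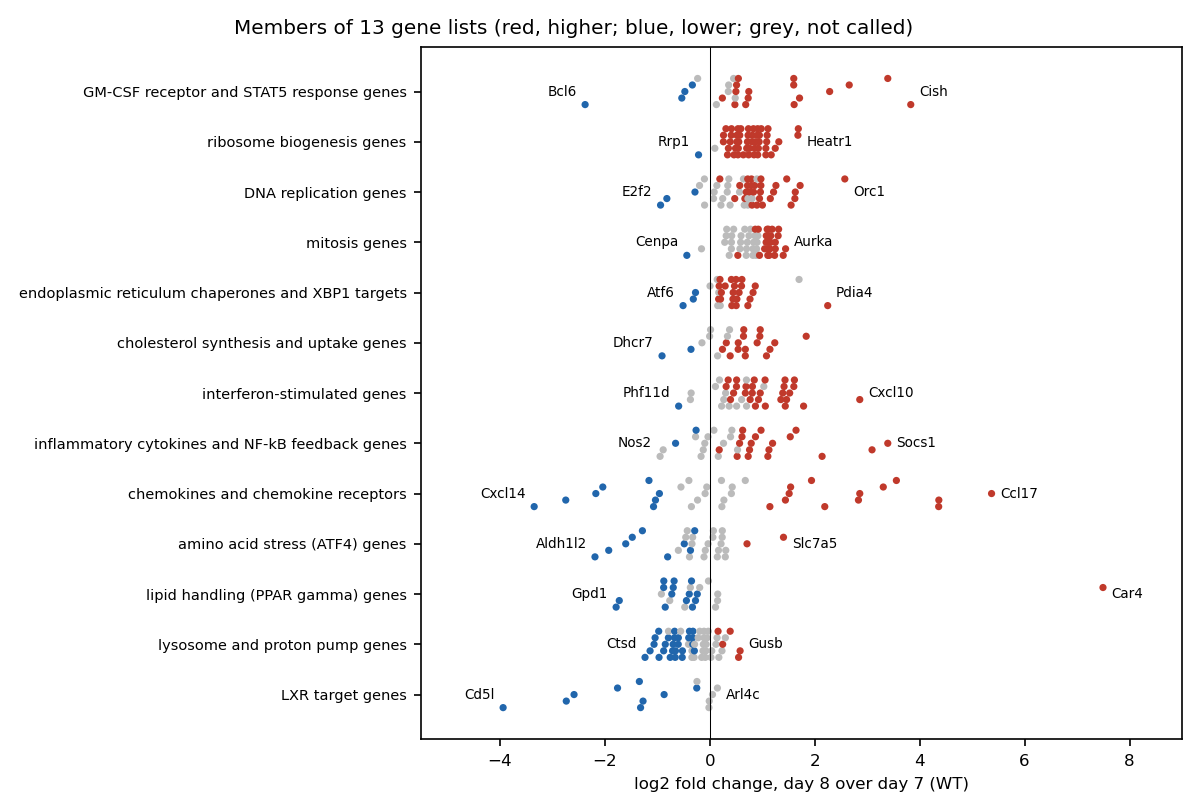
Each point is 1 tested member of 13 gene lists, placed by its log2 fold change from day 7 to day 8 in WT (x axis) and coloured red where called higher, blue where called lower and grey otherwise; the lowest or highest members are named. Ribosome biogenesis genes lie nearly all to the right of 0, LXR targets mainly to the left, and chemokines on both sides.

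Chemokine genes changed strongly in both directions: of 33 chemokines and receptors tested, 13 were higher and 8 lower (5 lower without mouse 66), and the list median was 0.54 without the day 8 library of mouse 63 and 0.15 without that of mouse 65. The list median was 0.27, but mouse 63 had a median of -0.07 against 0.49 and 0.34 in mice 65 and 66. Ccl17, which attracts T cells that carry the receptor CCR4, stood at 1.65, 1.59 and 1.46 CPM on day 7 and at 65.5, 56.1 and 73.3 CPM on day 8. It was 41.4-fold higher with no overlap (log2 5.37, SE 0.50, adjusted p 5.7e-08). The monocyte attractants Ccl7, Ccl12 and Ccl2 rose as well. Ccl7 went from 12.5, 11.3 and 11.1 CPM to 268, 238 and 213 CPM (log2 4.36, SE 0.42, adjusted p 1.1e-07). Ccl2 went from 66.4, 52.3 and 46.8 CPM to 722, 622 and 604 CPM (log2 3.56, SE 0.29, adjusted p 1.5e-08). The levels of these attractants were highest on day 8 in means: Ccl7 was at 166 CPM on day 9 and 41.9 CPM on day 10, whereas Ccl17 was at 114 and 128 CPM. Cxcl14, a chemokine of resting tissues, fell from 27.9, 33.9 and 37.1 CPM to 2.65, 3.94 and 3.11 CPM (log2 -3.35, SE 0.56, adjusted p 7.0e-05). Among receptors, outside the naming rule, Cx3cr1 fell by 2.75, Cxcr4 fell by 1.07, and Ccr7, which guides mature dendritic cells to lymph nodes, stood at -0.09 and was not called.

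Inflammatory genes were higher in 18 of 33 and lower in 2, with a median of 0.53. The lower calls were lost with library totals and without mouse 63 or 66. Tnf, the tumour necrosis factor gene, stood at 10.9, 11.1 and 12.7 CPM on day 7 and at 107, 81.9 and 107 CPM on day 8. The 8.53-fold rise had no overlap (log2 3.09, SE 0.24, adjusted p 4.6e-09). Marco, a scavenger receptor, went from 8.91, 4.78 and 6.46 CPM to 38.3, 13.1 and 37.8 CPM, with mouse 65 lowest on both days (log2 2.14, SE 0.52, adjusted p 0.0024). The NF-kB inhibitor gene Nfkbia, outside the naming rule, rose by 0.87, and its relative Nfkbiz fell by 0.65. Il6 was barely detected, at 0.281 to 0.468 CPM and then 0.769 to 1.42 CPM, and its call was lost in 7 of 22 alternatives. Of 42 interferon-stimulated genes, 28 were higher, 1 (Phf11d) lower and 13 not called (median 0.74, per mouse 0.82, 0.62 and 0.81). Phf11d lost its call with DESeq2 size factors, with library totals and without any 1 WT mouse. Cxcl10, a chemokine gene induced by interferon, went from 1.00, 0.936 and 0.984 CPM to 6.29, 6.97 and 8.06 CPM (log2 2.86, SE 0.47, adjusted p 5.4e-05). Oas2, a sensor of double-stranded RNA, went from 13.7, 17.6 and 16.8 CPM to 50.9, 47.9 and 46.7 CPM (log2 1.60, SE 0.23, adjusted p 1.4e-05). In both, all day 8 values exceeded all day 7 values.

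Genes of dendritic cell maturation were mixed. Of 32 tested, 14 were higher, 5 lower and 13 not called (median 0.32). Without mouse 63 or 66, 9 and 8 were higher. Besides Ccl17, Socs2 rose from 22.7, 21.9 and 22.6 CPM to 64.8, 72.1 and 66.8 CPM (log2 1.60, SE 0.16, adjusted p 1.3e-07). Outside the naming rule, the costimulatory genes Cd40 and Cd80 rose by 1.39 and 1.35, Cd86 stood at -0.21 and was not called, and Cd83 fell by 1.15. Cd200, an inhibitory surface ligand, fell from 43.8, 57.6 and 55.8 CPM to 13.8, 23.3 and 15.2 CPM, without overlap (log2 -1.59, SE 0.31, adjusted p 0.00031). In the MHC class II list, 4 of 18 were higher, 2 lower and 12 not called (median 0.08), and without any 1 WT mouse 2 were higher. The median ran from 0.02 to 0.17 over single WT libraries left out and was 0.25 with library totals. The protease Ctss, which trims the invariant chain, fell from 7103, 7437 and 7537 CPM to 3384, 4043 and 3859 CPM (log2 -0.97, SE 0.17, adjusted p 0.00012). H2-DMa, a chain of the class II peptide exchange factor H2-DM, rose from 111, 111 and 124.5 CPM to 229.8, 207 and 233 CPM, without overlap (log2 0.95, SE 0.13, adjusted p 9.1e-06). H2-DMb2, a gene for its other chain, rose from 8.51, 8.15 and 8.81 CPM to 28.3, 21.4 and 26.6 CPM, also without overlap (log2 1.58, SE 0.47, adjusted p 0.011). H2-DMa lies over a gene with more counts on the opposite strand, and whether counting used strand is not given.

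Protein folding genes of the endoplasmic reticulum were higher in 22 of 31 and lower in 3, with a median of 0.42. Pdia4, a disulfide isomerase, stood at 122, 133 and 132 CPM on day 7 and at 603, 635 and 599.9 CPM on day 8. It was 4.75-fold higher without overlap (log2 2.25, SE 0.17, adjusted p 4.6e-09). Creld2 went from 29.7, 28.6 and 32.6 CPM to 58.5, 50.0 and 57.2 CPM (log2 0.87, SE 0.09, adjusted p 4.9e-07), and Calr, the chaperone calreticulin, rose by 0.82 (SE 0.10, adjusted p 1.6e-06). Of 20 heat shock genes 14 were higher and 4 lower (median 0.33). Without mouse 63 or 65, 9 were higher. The lower members were 2 without the day 7 library of mouse 63 or 65 or the day 8 library of mouse 63 or 66. Hspd1, the mitochondrial chaperonin, went from 171, 184 and 180.0 CPM to 294, 281 and 286 CPM, with a gap between the days (log2 0.69, SE 0.08, adjusted p 1.8e-06). Dnajb4, a co-chaperone, fell from a mean of 24.9 to 14.9 CPM (log2 -0.74, adjusted p 0.00023). Of 62 respiratory chain and ATP synthase subunits, 26 were higher and 1 (Sdha) was lower, with a median of 0.18. With library totals 48 were higher, and without mouse 63 it was 17. The lower call was lost with DESeq2 size factors, with library totals and without any 1 WT mouse. Atp5b, a subunit of the catalytic part of ATP synthase, had means of 593 and 930.0 CPM (log2 0.65, adjusted p 2.3e-06), and Cycs, cytochrome c, had means of 32.3 and 50.9 CPM (log2 0.66, adjusted p 1.3e-06).

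Of 38 glycolysis and hypoxia genes tested, 14 were higher and 9 lower (median 0.11), against 21 higher and 7 lower (median 0.27) with library totals. Eno1, a main glycolytic enzyme, rose from 600, 571 and 612 CPM to 1352, 1192 and 1248 CPM (log2 1.09, SE 0.08, adjusted p 2.0e-09). Vegfa, the hypoxia-responsive growth factor of blood vessels, fell from 460, 451 and 475 CPM to 87.1, 103 and 78.4 CPM (log2 -2.37, SE 0.25, adjusted p 3.4e-07). Neither gene had overlapping days. Eno2, an enolase best known from neurons, fell by 2.28, and the glucose carrier gene Slc2a3 fell by 1.25. Outside the naming rule, Pgk1, Pkm, Gapdh and Ldha, enzymes of the same pathway, rose by 0.69, 0.69, 0.66 and 0.61.

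Immediate early genes, which respond to stimuli within minutes, had 8 higher and 10 lower members of 30. Their median was -0.13, and it turned to 0.04 with library totals. Without the day 7 library of mouse 63, 5 were higher, and without the day 7 library of mouse 66 or the day 8 library of mouse 65, 6 were lower. Fosb went from 45.8, 28.5 and 46.2 CPM to 5.59, 2.33 and 4.07 CPM, with mouse 65 lowest on both days (log2 -3.32, SE 0.44, adjusted p 4.6e-06). Fos went from 272, 207 and 279 CPM to 106, 87.6 and 94.0 CPM (log2 -1.40, SE 0.26, adjusted p 0.00023). For both, the days were apart. Outside the naming rule, Jun and Ier2 had log2 fold changes of -0.04 and -0.09 and were not called. The other members that rose beside Myc included Fosl1 (1.13) and Klf4 (0.83).

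The amino acid stress list had 2 members higher, 9 lower and 18 not called of 29 (median -0.29, per mouse -0.04, -0.24 and -0.27). With library totals 4 were higher and 6 lower (median -0.12), and without the day 7 library of mouse 66 the median was -0.18. Trib3, a pseudokinase induced by ATF4, went from 17.5, 18.2 and 23.8 CPM to 6.53, 7.27 and 5.74 CPM (log2 -1.60, SE 0.15, adjusted p 7.8e-08). Mthfd2, an enzyme of mitochondrial folate metabolism named outside the rule, fell by 1.28. The amino acid carriers Slc7a5 and Slc1a5 were the members that rose, by 1.40 and 0.71. Of 23 cytosolic aminoacyl-tRNA synthetases and their partners, 7 were higher and 7 lower (median 0.04), and library totals gave 12 higher and 5 lower (median 0.21). Cars, which charges tRNA with cysteine, went from 58.8, 67.0 and 68.4 CPM to 35.4, 30.8 and 34.7 CPM (log2 -0.94, SE 0.09, adjusted p 4.8e-08). Farsa, a subunit of the phenylalanine enzyme, went from 37.3, 37.5 and 38.0 CPM to 65.0, 56.9 and 60.1 CPM (log2 0.69, SE 0.08, adjusted p 6.7e-07).

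In the same fit, 4 genes of 14535 (0.0275%) had a change from day 7 to day 8 that differed between KO and WT at the adjusted threshold. An unadjusted p under 0.05 was reached by 685 genes, 4.71% of those tested. All 4 serve amino acid synthesis or tRNA charging, and all were lower on day 8 in WT. Asns (ENSMUSG00000029752.12, chromosome 6, 7675169 to 7693254), asparagine synthetase, stood at 33.2, 38.9 and 47.4 CPM on day 7 and at 15.4, 13.8 and 13.6 CPM on day 8 in WT (log2 -1.48). In KO it stood at 11.2, 14.5 and 12.7 CPM and then at 12.7, 15.6 and 13.5 CPM (log2 0.12). The day 7 WT values were thus above all the others, and the change was 1.60 higher in KO (SE 0.22, adjusted p 0.0067). Psat1, an enzyme of serine synthesis, stood at 37.8, 44.1 and 53.8 CPM and then at 36.8, 26.7 and 33.3 CPM in WT, and at 15.4, 15.1 and 17.3 CPM and then at 31.1, 42.8 and 26.0 CPM in KO. It differed by 1.55 (SE 0.26, adjusted p 0.033), and its fall within WT (log2 -0.49, adjusted p 0.033) was lost in 9 of 23 alternatives. Aars, which charges tRNA with alanine, stood at 164, 182 and 195.5 CPM and then at 125, 118 and 122 CPM in WT, and at 111, 113 and 112 CPM and then at 109.5, 119 and 125 CPM in KO. It differed by 0.65 (SE 0.10, adjusted p 0.030). Nars, the asparagine counterpart and below the number the rule names, differed by 0.42 (SE 0.07, adjusted p 0.045). Of 28 alternatives, the call was lost in 4 for Asns, 20 for Psat1, 20 for Aars and 24 for Nars. The fold threshold is among the 28, and Aars and Nars fall under it by their size alone. The WT level of Nars fell from 202, 215 and 220 CPM to 154, 158 and 155 CPM. The count of 4 fell to 0 without mouse 65, 66 or 68, to 2 without mouse 63 and to 1 without mouse 64 or 67, where a KO number does not stand for 1 animal on all days. It was also 1 without the day 7 library of mouse 65, 66, 67 or 68 or the day 8 library of mouse 63, 66 or 67, and 2 without the day 8 library of mouse 65 or the day 7 library of mouse 64.

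**Figure D4:**
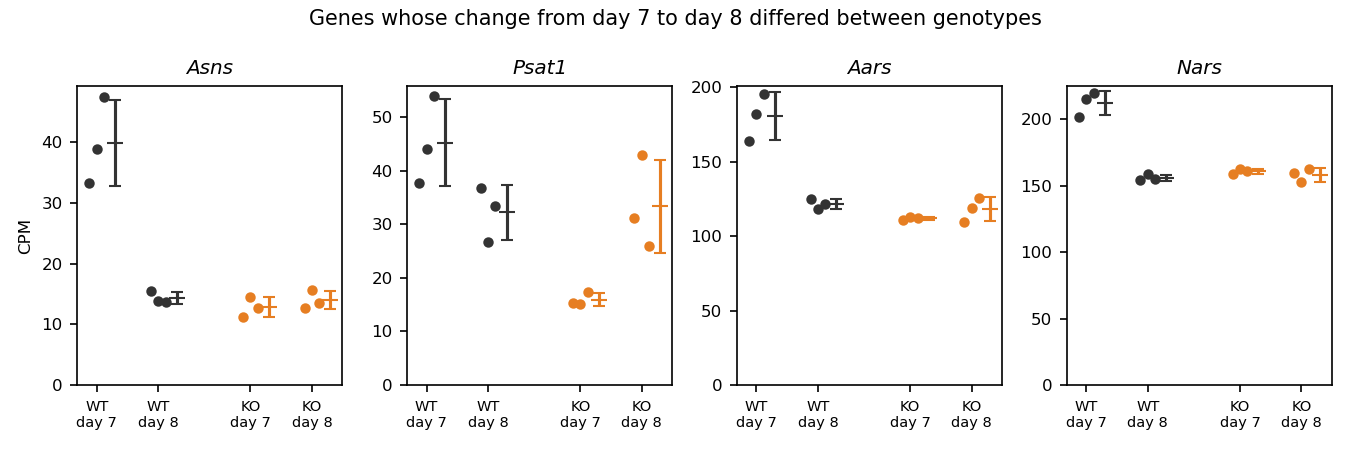
CPM of Asns, Psat1, Aars and Nars (y axes, from 0) in each library on day 7 and day 8 of WT (black) and KO (orange), with 1 point per mouse and, beside the points, the mean with its SD (n = 3). In all 4 genes the WT day 7 libraries are the highest of the 4 groups in their mean.

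The remaining genes with the largest changes came from several functions. Ccn3, a secreted matrix-associated protein, went from 7.59, 11.1 and 8.86 CPM to 172.5, 192 and 221 CPM (log2 4.41, SE 0.17, adjusted p 2.8e-13). Plet1, a surface protein of some dendritic cells and epithelia, went from 7.83, 8.19 and 8.34 CPM to 121.5, 142 and 177 CPM (log2 4.18, SE 0.53, adjusted p 3.2e-06), and its mean was 337 CPM on day 10. Id3, an inhibitor of helix-loop-helix transcription factors, went from 0.803, 0.702 and 0.685 CPM to 13.8, 9.92 and 16.1 CPM (log2 4.17, SE 0.68, adjusted p 5.4e-05). Its mean was back at 1.35 CPM on day 9 and 0.510 CPM on day 10. Cd209c, Csta2, Snai3 and Dmpk rose by 4.61, 4.43, 4.31 and 4.2. Cyp4a12a, a fatty acid hydroxylase gene of a family with near-identical copies, had 1 count in all on day 7 and 260 on day 8. The ratio of 227 had a 95% interval from 40.4 to 8995 that covers counting error only, and reads of its copy could have been assigned to it.

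Best1 (ENSMUSG00000037418.6, chromosome 19, 9985174 to 10001633), a chloride channel gene, had the largest fitted decrease among the genes named by the rule. It stood at 47.9, 50.2 and 52.0 CPM on day 7 and at 3.35, 3.25 and 2.87 CPM on day 8, a 15.8-fold difference without overlap (log2 -3.98, SE 0.25, adjusted p 4.5e-10). Best1 adjoins the end of Fth1 on the opposite strand, whose level was 38480 CPM on day 7 and 16740 CPM on day 8 in means, and any reads of Fth1 counted to Best1 were not tested. Rgs1, which dampens chemokine receptor signals, fell from 424, 393 and 461 CPM to 44.2, 71.9 and 48.9 CPM (log2 -2.95, SE 0.26, adjusted p 3.0e-08). Ace, the angiotensin-converting enzyme gene, fell from 12.9, 9.60 and 13.6 CPM to 1.36, 0.996 and 1.51 CPM (log2 -3.22, SE 0.40, adjusted p 2.4e-06). The carriers Slco2b1 and Slc36a2 fell by 3.19 and 3.18, and Eef1a2, an elongation factor best known from neurons and muscle, fell by 3.27. Klk1b11 and Klk1b9 of the kallikrein family fell by 3.21 and 2.97, where reads can be split among near-identical members. Klk1b11 went from 482, 445 and 610 CPM to 57.5, 48.8 and 59.3 CPM, and its means on days 9 and 10 were 101 and 215 CPM. Best1 likewise had means of 6.33 and 14.7 CPM on those days.

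**Figure D5:**
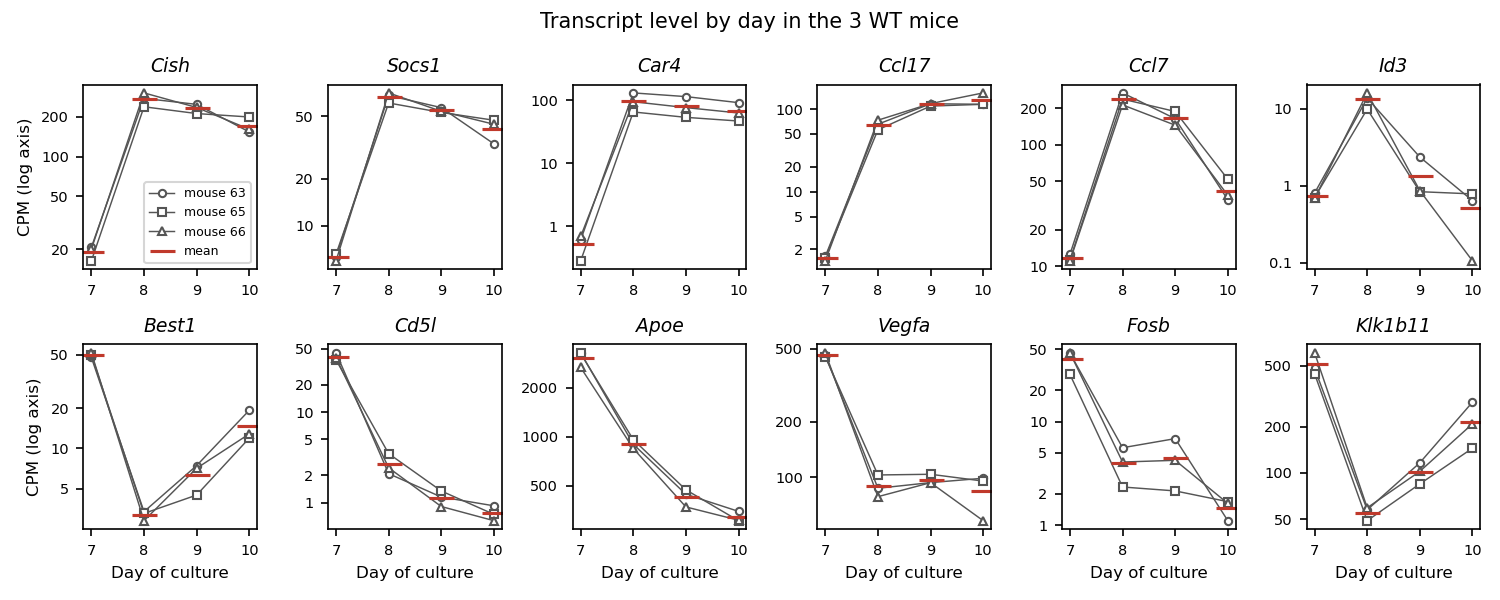
CPM (log axes, which differ between panels) of 12 genes on days 7, 8, 9 and 10 in the 3 WT mice, joined by lines, with the mean of the mice as a red bar. The upper row holds genes higher on day 8 and the lower row genes lower on day 8. In the upper row every gene but Ccl17 had its highest mean on day 8, and in the lower row Best1 and Klk1b11 alone had their lowest mean on day 8.

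Arpc4 (ENSMUSG00000079426.13, chromosome 6, 113378115 to 113390448), the gene floxed in all these mice, was itself higher on day 8. It went from 190, 188 and 199 CPM to 270.3, 246 and 264.5 CPM in WT (log2 0.44, SE 0.07, adjusted p 2.7e-05), with every day 8 value above every day 7 value. In KO it stood at 155, 170.3 and 182 CPM and then at 230.3, 231 and 223 CPM, below the WT values of the same day but not near 0. Counts over the whole gene do not show whether the floxed part was lost. In KO its log2 fold change was 0.43, and the difference between genotypes was -0.003 (SE 0.10, adjusted p 1). Of 10 Arp2/3 subunits tested, 4 were higher and 0 lower (median 0.12), and 7 were higher with library totals. Arpc1b, Actr2 and Arpc2, the others that rose, did so by 0.58, 0.47 and 0.33. Of 28 actin cytoskeleton genes 11 were higher and 2 lower (median 0.14), and 7 were higher without mouse 63. The median was 0.05 without the day 8 library of mouse 63, 0.22 without its day 7 library and 0.31 with library totals. Flna, the actin cross-linker filamin A, went from 1149, 1228 and 1171 CPM to 1821, 1885 and 1792 CPM, without overlap (log2 0.63, SE 0.10, adjusted p 4.0e-05). Lima1, an actin-binding protein, fell from a mean of 94.3 to 63.8 CPM (log2 -0.56, adjusted p 0.0012).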

How the data were processed

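Messenger RNA was sequenced from WT BMDC cultures of 3 mice on days 7 and 8, and the 18 other libraries of the series entered the model fit. The authors deposited raw counts per gene for 55487 genes and a table of TPM (abundance corrected for gene length). Per the submitters' processing notes, FastQC 0.11.9, STAR 2.6.1 and DESeq2 1.22.2 were used with the build mm10; the counter and its strand setting are not given in the sources used here. Per the labels' protocols, libraries were strand-specific and poly(A)-selected, and 2 kits were named but not tied to libraries. Positions are those of GENCODE M21 on GRCm38, where 55394 identifiers matched.

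Counts were analysed with edgeR 4.0.16 (R 4.3.3): filterByExpr kept 14535 of 28655 genes with a count, and TMM factors scaled the libraries. A quasi-likelihood fit with 1 coefficient for each of 8 groups used all 24 libraries (16 residual degrees of freedom), with two-sided tests and Benjamini-Hochberg adjustment over all genes tested, at 0.05. All adjusted p-values come from that fit. PCR-amplified reads without molecular identifiers limit precision statements from counts to counting error. On simulated data, 96% and 98% of genes lowered or raised by 1 on the log2 scale were recovered in the comparison of days, and 36% of those changed by 0.5. Of unchanged genes, 0.0705% were called. The simulation changed 50 genes at each size and direction beside 14184 unchanged genes, with the spread taken from its trend over abundance. In the real comparison 43.4% of genes were called, so the adjusted threshold differs and these shares do not give its recovery or its false calls.

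The WT mouse numbers recur on both days, and same-numbered libraries deviated together from their day means (r 0.288, 0.378 and 0.402 over 10768 genes; other pairs -0.248 to -0.094), so they pair the libraries. No pair of libraries within a day was a duplicate.

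Named genes are Arpc4, the 12 largest changes per direction without overlap of CPM values, with an average log2 CPM above 1 and a symbol that is not a predicted name, up to 4 called members of each of 26 lists, and up to 3 genes per direction for the difference between genotypes. Outside this rule, and picked after values were seen, are Abca1, Abcg1, Batf3, C1qb, Calcr, Ccl6, Ccnd1, Ccnd2, Ccr7, Cd163, Cd34, Cd40, Cd74, Cd80, Cd83, Cd86, Cenpa, Clec10a, Clec9a, Csf1r, Csf2ra, Csf2rb, Ctsa, Cx3cr1, Cxcr4, Ddx3y, Dhcr7, E2f2, Flt3, Fn1, Fosl1, Ftl1, Gapdh, Gpnmb, Ier2, Irf4, Itgax, Jun, Kit, Klf4, Ldha, Lyz2, Mcpt4, Mcpt8, Mrc1, Mthfd2, Nfkbia, Nfkbiz, Pcna, Pgk1, Phf11d, Pkm, Rfc2, Rrp1, Sc5d, Sdha, Slc1a5, Slc7a5, Timd4, Tpsab1, Vcan, Vsig4, Xcr1 and Zbtb46. A few genes the rule takes are not reported here. The comparison and the lists were chosen with earlier results of these data known. Alternatives were DESeq2 size factors, the DESeq2 1.42.0 Wald test, limma-trend (limma 3.58.1) on log2(TPM + 1), other filters, library totals, a fold threshold, fewer libraries and the mouse as a block.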

Additional observations from a re-analysis of the deposited data

Results flagged for a closer look

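The changes of 4 genes from day 7 to day 8 differed between WT and KO by a test of the difference itself (edgeR quasi-likelihood interaction, adjusted over all genes). On the log2 scale the change was more positive in KO than in WT by 1.60 for Asns, 1.55 for Psat1, 0.646 for Aars and 0.424 for Nars. Of 28 alternatives, the call was lost in 4 for Asns, 20 for Psat1, 20 for Aars and 24 for Nars, and in none did the direction change. The fold threshold is among the 28, and Aars and Nars fall under it by their size alone. No test for single outlying libraries was run, but libraries were left out singly.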

How the results depend on the processing

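The count of genes that differed between day 7 and day 8 in WT stayed within 1.5 times of 6315 under the alternatives run with 1 exception: asking also for an absolute log2 of 1 or more, it was 1695 (677 higher, 1018 lower). Leaving out a mouse or a single library gave 4397 to 6978. The mouse as a replicate block gave 6305 with all libraries. With only the 6 libraries of the comparison the count was 7491 without the block and 8186 with it. For the difference between genotypes the count ran from 0 to 4 over libraries left out. It was 10 with no filter, 8 with at least 50 counts, 2 with library totals, 2 with the fold threshold, 2 with the replicate block (KO numbers did not follow 1 animal), 1 with the 12 libraries of both days, 24 with the DESeq2 Wald test and 0 with limma-trend on TPM (555 at an unadjusted p under 0.05). Where it was 0 without mouse 65, 66 or 68, 541, 483 and 900 genes passed unadjusted. The causes were not tested.

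Of 122 named genes, 105 kept their call in all alternatives run for them, the fold threshold apart, and 17 lost it in at least 1, among them Chac1, H2-Eb2, Il6, Gsta3 and Psat1; 0 reversed. Among the 26 lists used for naming genes, the medians of 3 changed sign. Immediate early genes had 0.037 with library totals and 0.092 on TPM, and fatty acid synthesis genes 0.055 and 0.097. Cytosolic ribosomal protein genes had 0.027 on TPM. Medians of some cell type marker lists changed sign too. The neutrophil median went from -0.16 to 0.009 with library totals, and the macrophage median from 0.013 to -0.143 without mouse 66. Some genes at a few CPM, such as Il6 (SE 0.57), were measured with little precision. For genes under overlapping neighbours, such as Heatr1 (SE 0.10), the doubt is which gene the reads came from, which the SE does not cover and which was not tested.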
